A study of Mus musculus with 4 samples.

Results

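Camta1, Rbfox3 and Cdh23 are 3 long mouse genes whose bodies held many peaks of phosphorylated Smad proteins in the early molar tooth germ. They were chosen by their number of deposited peaks, so those numbers are given as a description and carry no test. A gene's locus was its body, from the RefSeq table of mm10, with 10 kb on each side. The loci held 47 of 10741 pSmad1/5 peaks and 37 of 7905 pSmad3 peaks, and the genes are 3 of 21523 protein-coding genes placed on the autosomes and X. The series profiled tooth germs of the molars, taken from wild-type CD1 embryos at E13.5, by CUT&RUN, in which an antibody brings micrococcal nuclease to chromatin and the released fragments are sequenced. It comprised 2 libraries with an antibody against pSmad1/5 and 2 with an antibody against pSmad3, all from tissue of the same genotype and with no treatment named. One peak list per antibody, of peaks common to its 2 libraries, was used. Since no value per library was used and no control library is named, there is no spread between replicates, and none of the differences below has a test. The lists hold no expression values, so the labelled tissue could not be checked against marker genes.

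Smad1 and Smad5 are phosphorylated by BMP receptors and Smad3 by TGF-β and activin receptors, and in the nucleus they bind DNA with Smad4, often inside introns and far from gene starts. Camta1 encodes a calmodulin-binding transcription activator found mainly in brain. Rbfox3 encodes NeuN, an RNA-binding splicing factor widely used as a marker of mature neurons. Cdh23 encodes cadherin 23, a cell adhesion protein that forms the tip link of the hair bundle in the inner ear.

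The RefSeq start windows of all 3 genes were free of peaks of both antibodies. Each window runs from 250 bases before to 50 after the annotated start. The share of all RefSeq windows touched by a peak is not given here. Free starts can therefore not be called particular to these genes. Of 14 such windows of any gene in the loci, 1 was touched by a pSmad1/5 peak and 1 by a pSmad3 peak, both inside Cdh23. Those 2 are printed after the windows of the 3 genes, 5′ to 3′, from RefSeq (GRCm38.p6, the assembly of mm10). Capitals mark CAGAC, from the classical Smad binding element, and GGCGC, the core of GC-rich Smad elements, each on either strand. The Camta1 window is chr4:151861719-151862018, that of Rbfox3 chr11:118760992-118761291 and that of Cdh23 chr10:60696441-60696740, all on the minus strand. The window of the lncRNA gene Gm51803 is chr10:60686907-60687206 and that of the predicted gene Gm17455 chr10:60399476-60399775, both on the plus strand.
Camta1 start: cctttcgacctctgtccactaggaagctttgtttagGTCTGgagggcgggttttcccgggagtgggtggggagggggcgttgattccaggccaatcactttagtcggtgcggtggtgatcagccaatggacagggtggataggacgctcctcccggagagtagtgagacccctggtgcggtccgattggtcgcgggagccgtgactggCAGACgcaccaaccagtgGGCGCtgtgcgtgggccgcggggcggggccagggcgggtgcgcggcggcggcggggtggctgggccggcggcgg
Rbfox3 start: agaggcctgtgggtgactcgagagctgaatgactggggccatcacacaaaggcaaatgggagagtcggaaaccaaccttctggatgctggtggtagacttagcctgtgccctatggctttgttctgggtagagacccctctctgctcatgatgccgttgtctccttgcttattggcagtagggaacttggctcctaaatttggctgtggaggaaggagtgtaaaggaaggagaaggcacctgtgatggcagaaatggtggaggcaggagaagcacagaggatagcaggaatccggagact
Cdh23 start: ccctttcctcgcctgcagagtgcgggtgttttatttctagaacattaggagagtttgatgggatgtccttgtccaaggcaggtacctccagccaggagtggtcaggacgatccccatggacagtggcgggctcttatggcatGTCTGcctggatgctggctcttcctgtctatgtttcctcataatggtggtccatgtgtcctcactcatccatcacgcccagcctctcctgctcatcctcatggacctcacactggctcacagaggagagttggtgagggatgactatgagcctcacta
Gm51803 start, under a pSmad1/5 peak: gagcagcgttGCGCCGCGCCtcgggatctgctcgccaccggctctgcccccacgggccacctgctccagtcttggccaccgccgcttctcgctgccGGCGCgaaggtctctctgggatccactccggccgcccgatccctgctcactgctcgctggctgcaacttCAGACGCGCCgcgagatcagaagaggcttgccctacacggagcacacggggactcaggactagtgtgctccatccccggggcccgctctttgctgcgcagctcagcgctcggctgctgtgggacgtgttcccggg
Gm17455 start, under a pSmad3 peak: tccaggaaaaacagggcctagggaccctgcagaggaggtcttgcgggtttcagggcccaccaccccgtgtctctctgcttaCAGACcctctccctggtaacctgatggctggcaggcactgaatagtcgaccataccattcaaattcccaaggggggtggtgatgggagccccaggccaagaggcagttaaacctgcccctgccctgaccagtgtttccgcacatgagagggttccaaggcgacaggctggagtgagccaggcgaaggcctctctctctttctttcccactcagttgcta

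CAGAC occurred 2 times in the Camta1 window, 0 times at Rbfox3, and once each at Cdh23, Gm51803 and Gm17455. It occurred in 49.6% of all 32851 RefSeq windows. GGCGC occurred 1 time at Camta1 and 4 times at Gm51803, never overlapping CAGAC, and 0 times in the other windows printed. It occurred in 36.9% of all windows. The G+C content was 68.3% at Camta1, 53.0% at Rbfox3 and 54.0% at Cdh23, against a median of 52.7% over all windows. Gm51803 had 69.3% and Gm17455 58.3%. These letters describe the windows and not sites of binding. From the window of its start, the nearest pSmad1/5 peak was 72.0 kb away at Camta1, 19.3 kb at Rbfox3 and 4.17 kb at Cdh23. The nearest pSmad3 peak was 73.4 kb, 36.3 kb and 31.2 kb away in the same order of genes. The RefSeq start of Rbfox3 used here lies 150.6 kb inside the gene body, which has several transcripts. Near the outer 5′ end of Rbfox3 both antibodies had a peak, 3.40 kb (pSmad1/5) and 1.08 kb (pSmad3) inside it.

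By distinct pSmad1/5 calls Camta1 came first of all protein-coding genes, and by pSmad1/5 peaks it came at place 5, after Zfp993 (28), Gm40847 (25), Gm38510 (21) and Zfp978 (19). For pSmad3 calls it shared place 2, after Gm40847 with 13. It spans 802 kb of chromosome 4, from 151059523 to 151861768, on the minus strand. Peaks that share the total signal, the maximum and the region of the maximum are pieces of a single call, so both units are given. Camta1 held 18 pSmad1/5 peaks from 16 calls and 12 pSmad3 peaks from 12 calls, all of them inside the gene. Of protein-coding genes 27.3% had at least 1 pSmad1/5 peak in the locus and 24.4% at least 1 pSmad3 peak. The first 72.0 kb of the gene held no peak of either antibody. The peaks nearest the start were a pSmad1/5 peak from 151786139 to 151789714 and a pSmad3 peak from 151783763 to 151788282, which overlapped. A long stretch in the middle was also free, 169 kb for pSmad1/5 (151386873 to 151555970) and 201 kb for pSmad3 (151415626 to 151616314). The densest part, part 8 of 10 equal parts from the 5′ end, had 4 pSmad1/5 and 3 pSmad3 peaks. There a pSmad3 peak of 12428 bp, the longest in Camta1, covered a pSmad1/5 peak from 151259450 to 151262395 entirely.

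Rbfox3 had nearly as many calls in a much shorter body, so its calls were denser. It spans 422 kb of chromosome 11, from 118489760 to 118911597, on the minus strand. It held 17 pSmad1/5 peaks from 13 calls and 13 pSmad3 peaks from 12 calls. All but 1 peak per antibody lay inside the gene. Those 2 lay beyond its 3′ end, on Engase, an enzyme that releases sugar chains from glycoproteins. The density was 2.94 pSmad1/5 and 2.72 pSmad3 calls per 100 kb, against 1.95 and 1.46 in Camta1. The longest pSmad3 peak in the 3 loci, of 14215 bp, lay 219 kb from the 5′ end (118678101 to 118692315), in a stretch of 68.2 kb without a pSmad1/5 peak (118671878 to 118740106). Where both antibodies met, the longest shared run was 3390 bp, from 118798922 to 118802311.

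Cdh23 had fewer pSmad1/5 calls than the other 2 genes and a similar number of pSmad3 calls. It spans 394 kb of chromosome 10, from 60302748 to 60696513, on the minus strand. It held 12 pSmad1/5 peaks from 10 calls and 12 pSmad3 peaks from 11 calls, all inside the gene, at 2.42 and 2.66 calls per 100 kb. The widest pSmad1/5 peak in the 3 loci, of 6771 bp, lay close to its start (60685501 to 60692271) and ran over the start window of Gm51803. Vsir, an immune checkpoint receptor gene of 83.4 kb that lies inside Cdh23, carried 4 pSmad1/5 and 4 pSmad3 peaks on its body. These peaks lie in both genes and cannot be assigned to either. Toward the 3′ end a stretch of 79.3 kb held no pSmad1/5 peak (60307554 to 60386832), and the last 88.2 kb of the locus held no pSmad3 peak (60292748 to 60380965).

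**Figure D1:**
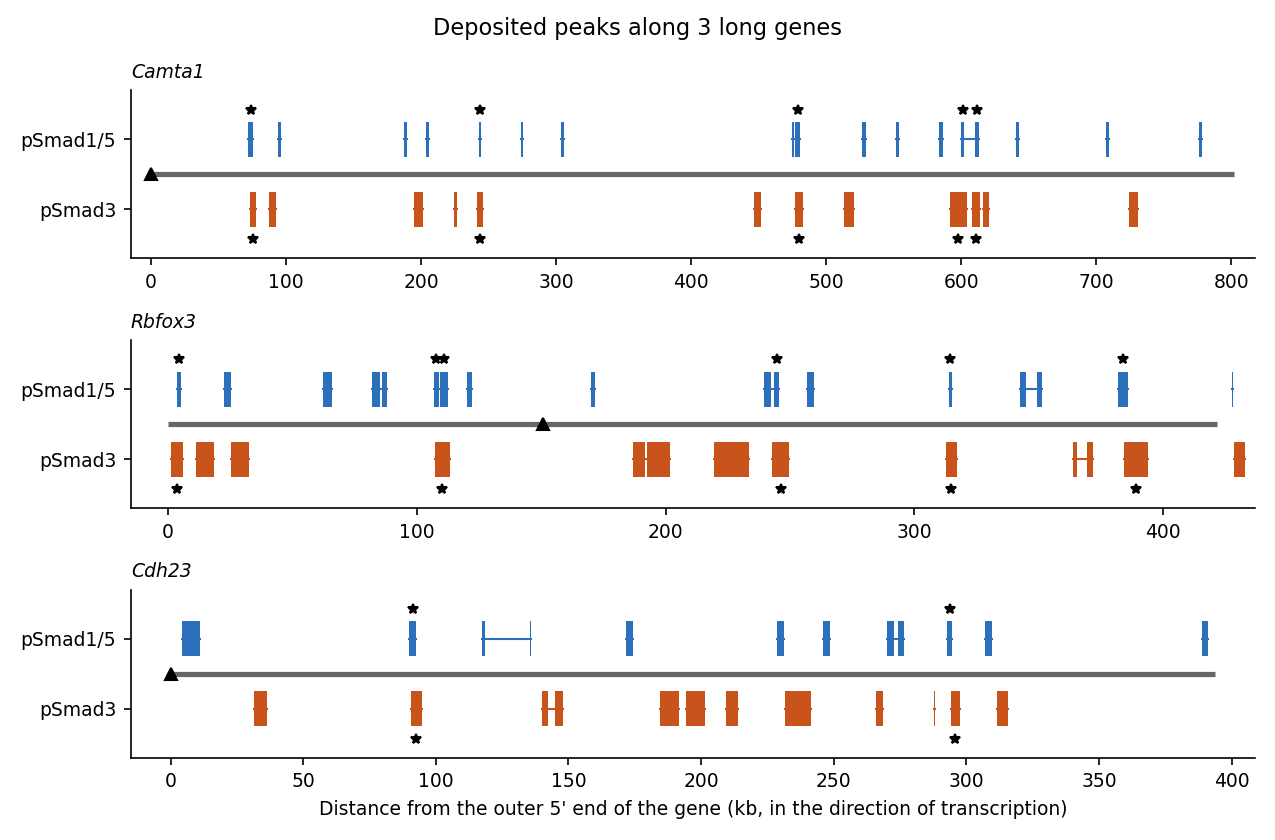
Deposited peaks along Camta1, Rbfox3 and Cdh23, by distance from the outer 5′ end of the gene in kb. Bars are peaks to scale (pSmad1/5 above and pSmad3 below the grey gene body), thin lines join pieces of 1 call, stars mark peaks that overlap a peak of the other antibody, and triangles mark the RefSeq start whose window is printed. Camta1 is empty over its first 72.0 kb and has a free stretch in the middle, of 169 kb for pSmad1/5 and 201 kb for pSmad3. Toward the 3′ end of Cdh23 the free stretches are 79.3 and 88.2 kb. Elsewhere the peaks of both antibodies lie at many positions in each gene.

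The peaks were spread along the genes rather than gathered at 1 place. With each gene cut into 10 equal parts, pSmad1/5 peaks lay in 9 parts of Camta1, 9 of Rbfox3 and 8 of Cdh23, and pSmad3 peaks in 8, 7 and 7. No part held more than 4 peaks of an antibody. Genes of similar length, described below, with at least 5 pSmad1/5 calls had peaks in 3 to 9 parts at the length of Camta1. At the lengths of Rbfox3 and Cdh23 these were 3 to 8 and 3 to 9 parts, and 3 to 7 at both for pSmad3. These ranges include the other member. The 9 parts at the length of Cdh23 are those of Rbfox3, and without it the most were 8, in Gse1. The number of parts depends on the number of peaks for which the genes were chosen, so this spread is no separate result. The median distance between the middles of neighbouring pSmad1/5 calls was 32.3 kb in Camta1 (15 gaps, 15.9 to 173 kb), 34.7 kb in Rbfox3 (12 gaps, 11.4 to 72.0 kb) and 35.5 kb in Cdh23 (9 gaps, 14.8 to 83.6 kb). For pSmad3 it was 30.7 kb in Camta1 (11 gaps, 7.43 to 206 kb), 29.4 kb in Rbfox3 (11 gaps, 7.77 to 81.4 kb) and 22.8 kb in Cdh23 (10 gaps, 7.83 to 58.8 kb). The medians of the 3 genes thus lay within a few kb of each other for pSmad1/5, although Camta1 is about as long as the other 2 genes together. Among the genes of similar length described below, those with at least 5 calls had a median spacing of 72.0 kb for pSmad1/5 at the length of Camta1 (6 genes, 45.7 to 159 kb). At the length of Rbfox3 it was 50.7 kb for pSmad1/5 (16 genes) and 29.2 kb for pSmad3 (8 genes), and at that of Cdh23 50.7 kb (20 genes) and 34.2 kb (11 genes). The groups at the lengths of Rbfox3 and Cdh23 again include the other member. Spacing depends in part on the number of calls for which the genes were chosen, so it is not taken as a separate result. It also depends on how evenly the calls lie. Camta1 had fewer pSmad1/5 calls per 100 kb than Rbfox3 (1.95 against 2.94) but the smaller median distance, beside long stretches without a peak.

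The signal at these peaks was ordinary for their lists. The maxima and totals are the authors' coverage signal for a call and are comparable only within a list. The list medians and quartiles were taken over peaks, so a call deposited in several pieces counts more than once in them. The maximum ran from 12 to 20 over the 39 pSmad1/5 calls, against a list median of 16 (quartiles 15 and 19). It ran from 10 to 18 over the 35 pSmad3 calls, against a list median of 13 (12 and 15). None of these calls passed 2 times its list median, in lists whose highest maxima were 2249140 and 1736980. The total signal lay above the list median in 21 of the 39 pSmad1/5 calls and 22 of the 35 pSmad3 calls. By gene this was 6 of 16 pSmad1/5 calls in Camta1, 7 of 13 in Rbfox3 and 8 of 10 in Cdh23, and 6 of 12, 8 of 12 and 8 of 11 pSmad3 calls. The highest totals were 179309 for pSmad1/5, in Cdh23 (60603910 to 60606664), and 99082 for pSmad3, also in Cdh23 (60455084 to 60465050). The median width was 2312 bp for pSmad1/5 and 4903 bp for pSmad3 in the loci, against 2385 and 4693 bp over the whole lists. The region of the maximum touched the peak itself in 19 of 47 pSmad1/5 peaks (40.4%, 36.7% in the list) and 30 of 37 pSmad3 peaks (81.1%, 74.8% in the list). For the other peaks the maximum lay in the call outside the deposited peak, and the total belongs to the whole call.

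Where the antibodies met, they did so at a few positions in each gene. In Camta1 5 of 18 pSmad1/5 peaks overlapped a pSmad3 peak (27.8%, exact Clopper-Pearson 95% bounds 9.70 and 53.5), as did 5 of 12 pSmad3 peaks the other way (41.7%, 15.2 to 72.3). In Rbfox3 these were 6 of 17 (35.3%, 14.2 to 61.7) and 5 of 13 (38.5%, 13.9 to 68.4), and in Cdh23 2 of 12 for each (16.7%, 2.09 to 48.4). Over the whole lists 22.6% of pSmad1/5 and 23.8% of pSmad3 peaks overlapped the other list. Pooled over the 3 genes the shares were 27.7% (15.6 to 42.6) and 32.4% (18.01 to 49.8), so both intervals hold the value of the whole list. Peaks with a maximum of at most 2 times the list median, as all of these are, overlapped in 17.1% (16.3 to 17.8) and 19.4% (18.5 to 20.3) of cases over the lists. In loci of genes of similar length, the 3 loci left out, the shares were 11.6%, 14.3% and 9.94% for pSmad1/5 at the lengths of Camta1, Rbfox3 and Cdh23, and 19.3%, 15.8% and 12.2% for pSmad3. Zfp993 alone gave 17 of the 42 overlapping pSmad1/5 peaks at the length of Rbfox3, and without it the shares there were 9.43% and 11.6%. The lower bounds of the pooled shares lay above all 3 of these pSmad1/5 values and above those of pSmad3 at the lengths of Rbfox3 and Cdh23. The genes were chosen for many peaks of both antibodies, and the overlap share depends on how dense the peaks are. The higher shares are therefore no separate result, and the bounds do not test them. The intervals cover counting error only, and peaks of 1 locus or 1 call are not independent.

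Within the overlaps the narrower pSmad1/5 peak usually lay wholly inside the pSmad3 peak. Of the 13 overlapping pairs, 4 of 5 in Camta1, 4 of 6 in Rbfox3 and 0 of 2 in Cdh23 had the whole pSmad1/5 peak covered. The 2 pairs of Cdh23 lay at 60401928 to 60402412 (485 bp, also inside Vsir and Gm17455) and 60603910 to 60605872 (1963 bp). Both antibodies together covered 98.9 kb of the Camta1 locus (12.02%), 110 kb of Rbfox3 (24.8%) and 81.2 kb of Cdh23 (19.6%), and both at once covered 13.1, 11.3 and 2.45 kb. Of the pSmad1/5 peaks without a partner, 7 of 13 in Camta1, 5 of 11 in Rbfox3 and 6 of 10 in Cdh23 lay within 10 kb of a pSmad3 peak, against 23.1% over the whole list. For unpartnered pSmad3 peaks this was 5 of 7, 4 of 8 and 6 of 10, against 26.0%. Like the spacing, this depends on the number of calls for which the genes were chosen. The closest such pair, in Rbfox3, was 124 bp apart.

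**Figure D2:**
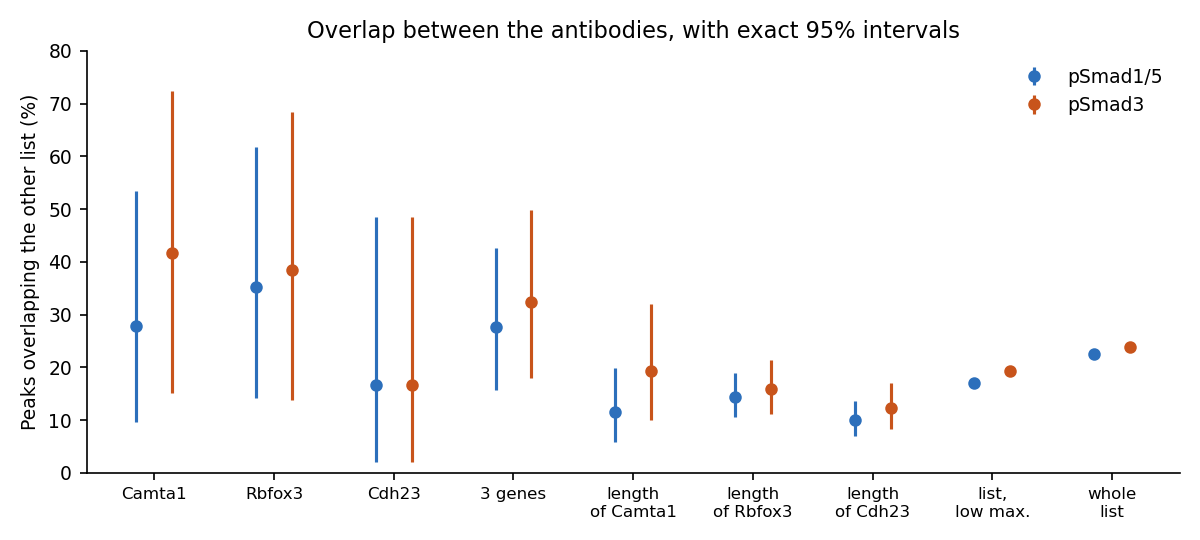
Share of peaks that overlap a peak of the other antibody, in percent, with exact 95% intervals, for pSmad1/5 and pSmad3. From left to right are each gene, the 3 genes pooled, loci of genes of similar length without the 3 loci, all peaks with a maximum of at most 2 times the list median, and the whole list. The pooled values of 27.7% and 32.4% lie above those of genes of similar length. Their wide intervals hold the whole-list values of 22.6% and 23.8%. The share depends on the number of peaks for which the genes were chosen.

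For each antibody, most genes of similar length had no call. These were the other protein-coding genes within 20% of the length, 77 for Camta1 (647 to 954 kb), 240 for Rbfox3 (338 to 505 kb) and 263 for Cdh23 (316 to 472 kb). The last 2 groups share many genes and each holds the other member. At least 1 pSmad1/5 peak lay in 45.5% of the genes at the length of Camta1, 47.1% at that of Rbfox3 and 49.0% at that of Cdh23, and at least 1 pSmad3 peak in 39.0%, 38.8% and 41.1%. The median number of calls was 0 in every group for both antibodies. Camta1 had 16 and 12 calls, and 0 of 77 genes reached either number. The most of any other gene at its length were 9 for pSmad1/5, in Nav2, and 6 for pSmad3, in Dlgap2. Rbfox3, with 13 and 12, was reached by 0 of 240 genes for pSmad1/5 and by 1 for pSmad3, Sorcs2, a sorting receptor gene. Cdh23, with 10 and 11, was reached for pSmad1/5 by Rbfox3 and Gse1 and for pSmad3 by Rbfox3 and Sorcs2. These places describe the choice of the genes. Genes that were not chosen include Zfp993, with 28 pSmad1/5 and 10 pSmad3 peaks from 12 and 10 calls. Gse1, with 12 and 9 peaks, and Sorcs2, with 9 and 12, were not chosen either. Zfp993 had more pSmad1/5 peaks than any of the 3 members, so the choice does not follow that count alone.

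**Figure D3:**
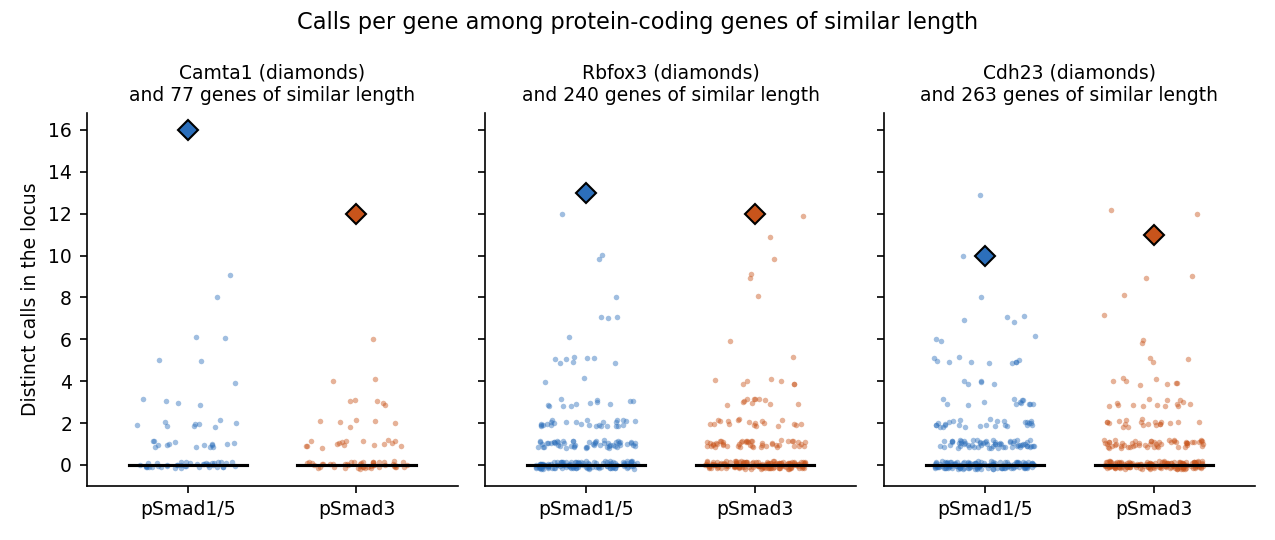
Distinct calls in the locus for Camta1, Rbfox3 and Cdh23 (diamonds) and for each protein-coding gene within 20% of the length (dots, spread sideways and slightly up and down to show ties). Black lines are the medians of the dots, 0 in every column. Camta1 stands at 16 and 12 calls, above all 77 genes of its length.

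Genes most like each member in their pair of call counts differed between the members. For Camta1 the nearest was Nav2, a neuron navigator gene, with 9 pSmad1/5 and 4 pSmad3 calls, a summed difference of 15. Wwox, an oxidoreductase gene at a fragile site (8 and 2), and Arhgap26 (5 and 4) followed. For Rbfox3 the nearest was Zfp993, a zinc finger gene with 12 and 10 calls, and a summed difference of 3, then Cdh23 and Gse1. For Cdh23 it was Gse1, with 10 and 9 calls and a summed difference of 2, then Rbfox3 and Sorcs2 (7 and 12). The 13 pSmad1/5 calls of Rbfox3 were deposited as 17 peaks, against 28 peaks from 12 calls in Zfp993. Of all protein-coding genes, 4 had 10 or more calls of both antibodies, namely the 3 members and Zfp993.

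All 3 genes lay among more genes than most genes of their length. Within 1 Mb of the middle of the gene RefSeq places 30 protein-coding genes at Camta1, 37 at Rbfox3 and 23 at Cdh23, the gene itself included. The medians of the genes of similar length were 6, 10.5 and 11. Of these genes 74 of 77, 235 of 240 and 225 of 263 had fewer than their member. Across these genes, which are not replicates, calls and surrounding genes had, as a description, a Spearman correlation of 0.36 (n = 77), 0.41 (n = 240) and 0.45 (n = 263) for pSmad1/5 and 0.41, 0.48 and 0.49 for pSmad3. Between the calls of both antibodies it was 0.55, 0.60 and 0.62. Against genes within 50% of the length and 25% of that gene number, a comparison added after these values were seen, the median was 2 calls of each antibody for Camta1 (15 genes) and 1 for Rbfox3 (70 genes) and Cdh23 (131 genes). None of these genes reached the pSmad1/5 calls of its member. For pSmad3 Rbfox3 reached Camta1 and Sorcs2 reached Cdh23. The part of gene density in the counts was not tested.

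**Figure D4:**
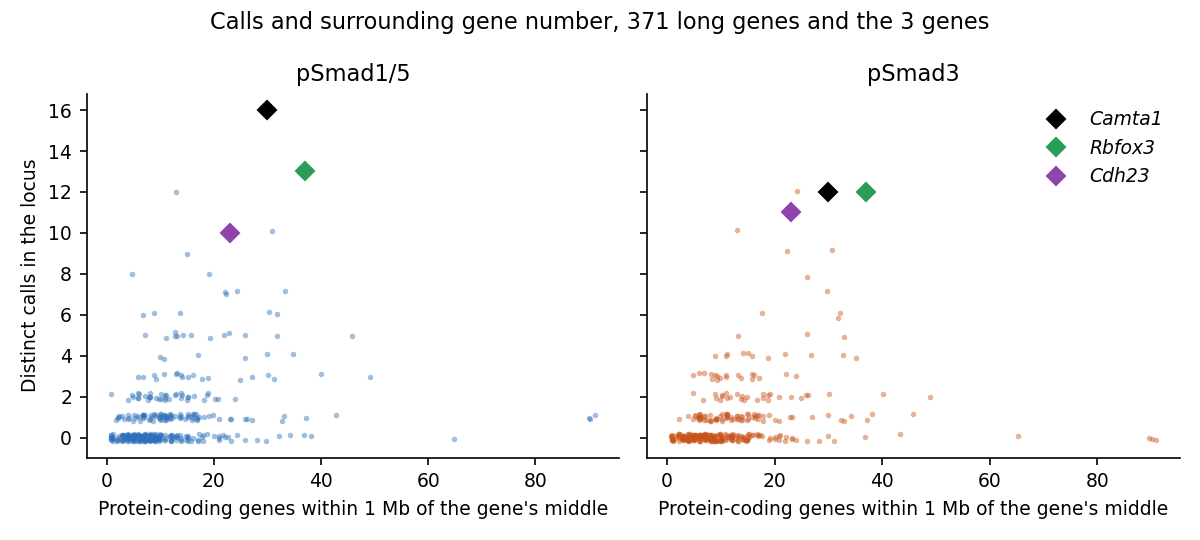
Distinct calls in the locus against the number of protein-coding genes within 1 Mb of the gene's middle, for pSmad1/5 (left) and pSmad3 (right). Small dots are the 371 other genes of similar length to any of the 3 genes, slightly spread, and diamonds are Camta1, Rbfox3 and Cdh23 at 30, 37 and 23 surrounding genes.

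Peaks did not stop at the borders of the genes. Camta1 had 1.95 pSmad1/5 and 1.46 pSmad3 calls per 100 kb in its locus, against 1.80 of each in the 500 kb beyond it on the 5′ side and 1 of each in those on the 3′ side. Rbfox3 had 2.94 pSmad1/5 calls per 100 kb, against 2 on the 5′ side and 1.80 on the 3′ side. Its pSmad3 calls numbered 2.72 per 100 kb, against 1.4 and 2.4. At Cdh23 the pSmad1/5 calls were 2.42 per 100 kb, against 1.4 and 1. Its pSmad3 calls were 2.66, against 0.2 on the 5′ side, where the 500 kb held 1 call, and 2 on the 3′ side. Genes of similar length averaged 0.141 pSmad1/5 and 0.0914 pSmad3 calls per 100 kb at the length of Camta1, 0.253 and 0.211 at that of Rbfox3 and 0.287 and 0.239 at that of Cdh23. The flanks, apart from the 5′ side of Cdh23 for pSmad3, were thus denser than those averages. Up to the last gene of the chromosome, chromosome 4 held 0.447 pSmad1/5 and 0.472 pSmad3 calls per 100 kb, chromosome 11 0.463 and 0.447, and chromosome 10 0.283 and 0.227. Camta1 ended 4.49 Mb and Rbfox3 3.01 Mb before the last gene of the chromosome, and Cdh23 69.9 Mb before it.

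**Figure D5:**
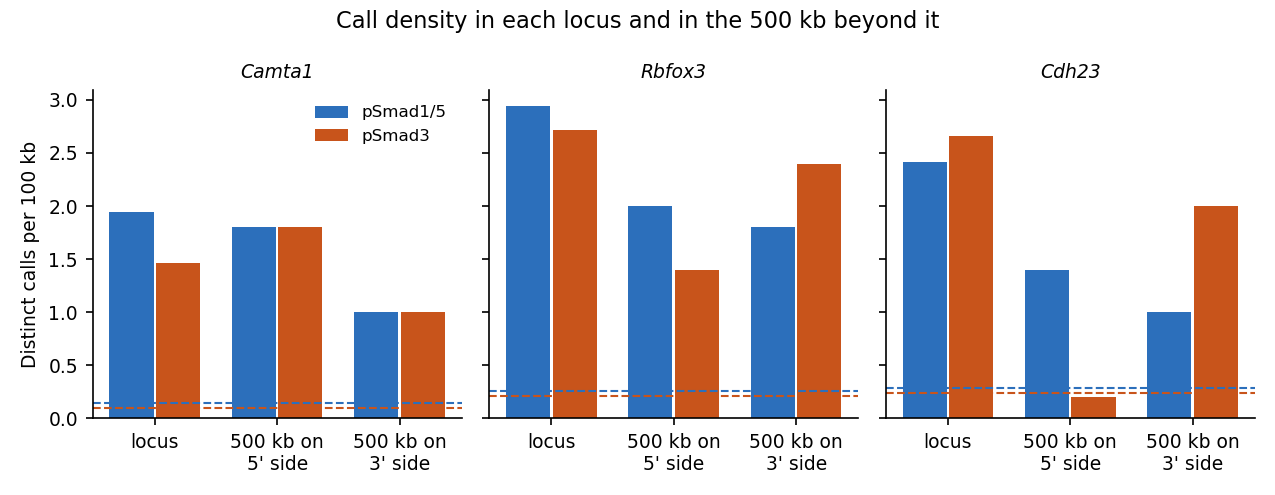
Distinct calls per 100 kb in the locus of each gene and in the 500 kb beyond it on the 5′ and 3′ sides, for pSmad1/5 and pSmad3. Dashed lines are the averages over genes of similar length, between 0.0914 and 0.287. All bars but that of pSmad3 on the 5′ side of Cdh23, at 0.2, rise above the lines.

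Other genes inside or beside the loci carried some of these peaks. RefSeq places 9 further genes wholly inside Camta1, most of them lncRNA genes. Of all 13 genes touching its locus, Gm38442 had 2 pSmad1/5 and 1 pSmad3 peak on its body and Gm30422 had 1 pSmad1/5 peak, while Vamp3, a vesicle fusion protein gene beyond the 3′ end, had none. Inside Rbfox3 the lncRNA gene Gm11750 had 1 pSmad1/5 peak. Beside Cdh23, Psap, the precursor of lysosomal saposins, had none.

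Relatives of the 3 genes ranged from no peak to several calls. Camta2, the other CAMTA gene and 18.7 kb long, had none. Rbfox1, at 1528 kb much longer than Rbfox3, had 1 pSmad1/5 and 3 pSmad3 calls, and Rbfox2 had 3 and 0. Of 15 Usher and hair bundle genes, Cdh23 included, pSmad1/5 peaks lay at 7 (46.7%, against 27.3% of all protein-coding genes) and pSmad3 peaks at 6 (40%, against 24.4%). Their median was 0 calls for each antibody, as over all protein-coding genes, and their median length 70.0 kb, against 17.4 kb. Besides Cdh23, the motor protein gene Myo7a had 2 and 2 calls, the scaffold gene Whrn 2 and 1, and Ush1c 0 and 2. Pcdh15, whose protein pairs with cadherin 23 in the tip link, had no peak in 1554 kb, and neither had Adgrv1 or Clrn1. Of 18 classical and related cadherins, 5 (27.8%) had a pSmad1/5 and 4 (22.2%) a pSmad3 peak, against 27.3% and 24.4% of all protein-coding genes. The medians of the 18 genes were 0 calls. The most calls lay in Cdh4 (7 and 9), Cdh13 (7 and 6), Cdh22 (3 and 5) and Cdh15 (2 and 1), while Cdh1, Cdh10 and Cdh11 had none. Of 17 large or non-classical cadherins, Cdh23 included, 9 (52.9%) had a pSmad1/5 and 5 (29.4%) a pSmad3 peak, against the same 27.3% and 24.4%. The medians of the 17 genes were 1 and 0 calls, and their median length was 86.9 kb. Clstn1 had 2 and 2 calls, Clstn3 3 and 0 and Celsr3 0 and 2, while Cdh17, Dchs1 and Dchs2 had none.

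Many genes as long as these or longer had no peak. Of 35 very long neural and fragile-site genes, with a median length of 1212 kb, pSmad1/5 peaks lay at 18 (51.4%), pSmad3 peaks at 13 (37.1%) and neither at 17. These shares were 45.5% and 39.0% of the genes at the length of Camta1, and 27.3% and 24.4% of all protein-coding genes. The median of the 35 genes was 1 pSmad1/5 and 0 pSmad3 calls. Wwox had 8 and 2 calls, Dpp6 6 and 1, Auts2 1 and 4 and Fhit 2 and 3, while Csmd1, Csmd3 and Ctnna3, each over a megabase, had none. Of 98 protein-coding genes of 800 kb or more, 42 (42.9%) had no peak of either antibody, and Camta1 was the only one with 10 or more calls of both. Of 30 long genes of mesenchyme and signalling, 20 (66.7%) had a pSmad1/5 and 16 (53.3%) a pSmad3 peak, against 27.3% and 24.4% of all protein-coding genes, with a median of 1 call for each antibody. Their median length was 218.5 kb, against 17.4 kb over all protein-coding genes. The part of length in these shares was not tested. Prdm16, a regulator of palate and fat development, had 6 and 7 calls and Gli2, a Hedgehog transcription factor, 5 and 6. Casz1 had 2 and 5 and Ltbp2, a gene of extracellular matrix microfibrils, 4 and 3, while Ebf1, Fbn2 and Foxp2 had none. Of 12 neuron marker genes, Rbfox3 included, 2 (16.7%) had a pSmad1/5 and 3 (25%) a pSmad3 peak, against 27.3% and 24.4% of all protein-coding genes. The medians of the 12 genes were 0 calls. Elavl3 had 2 and 1 calls and Elavl4 0 and 1, while Dcx, Map2 and Nefl had none.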

How the data were processed

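The authors deposited 1 peak list per antibody, of peaks common to 2 libraries. Per the labels, a line gives a position, the coverage signal summed over the call (an area score, called total signal here), the highest coverage signal and where it lay, as SEACR writes them. Per the submitters' processing notes, Bowtie2, SAMtools, bedtools, SEACR and deepTools were used with mm10. Their settings, the scaling of the signal and the joining of the libraries are not stated in these sources, and read depth is unknown. Counting used Python 3.11.15 with pandas 2.3.3 and was checked on simulated intervals. A peak counted if it touched the locus by 1 bp. Genes came from the RefSeq table of GRCm38.p6, without those in the first 3 Mb of a chromosome, and strands from its table of start windows. The members, the lists and the comparisons were chosen with earlier results of these data known. Genes were named if they touched a member's locus, had the most calls or the nearest pair of counts among genes of similar length, or led or lacked peaks in a list. Alternatives varied the flank, the overlap, the peaks kept and the comparison genes. No test was run.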

Additional observations from a re-analysis of the deposited data

How the results depend on the processing

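No paired analysis was possible because each antibody had 1 list for its 2 libraries, and for the same reason no library could be left out. Over 13 other settings and 1 added after the data were seen, 60 of 66 values for the 3 genes together moved by at most 1.5 times or stayed within their interval. The other 6 came from keeping only peaks with a total signal above the list median, which removes peaks by construction. The pSmad1/5 counts fell to 25 peaks and 21 calls and the pSmad3 counts to 24 peaks and 22 calls, the median pSmad1/5 spacing became 52.9 kb, and 16% of the pSmad1/5 and 16.7% of the pSmad3 peaks overlapped a kept peak of the other antibody, where the first stayed within its interval. Of 198 values for single genes, 33 moved further. With these peaks alone, 0 of 77 genes still reached Camta1 for either antibody, 2 and 3 of 240 reached Rbfox3 and 0 and 2 of 263 reached Cdh23. No peak in the 3 loci passed 2 times the median maximum, so leaving them out changed none of their counts. Against genes of the same chromosome within 50% of the length, no gene reached any of the 3 (13, 40 and 44 genes). Against all genes within 50%, 0 and 1 of 316 reached Camta1, 0 and 2 of 782 reached Rbfox3 and 5 and 3 of 852 reached Cdh23. Without read depth or values per library, a locus without a peak can only be called one without a deposited peak.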
